A study of Mus musculus with 16 samples.

Results

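Acute phase reactants are plasma proteins whose output by the liver changes during infection or injury, and the transcripts of 10 of them were followed here in cultured mouse hepatocytes. The 10 genes, found by symbol among the 55416 genes of the table, were the serum amyloid A genes Saa1, Saa2 and Saa3, the orosomucoid genes Orm1 and Orm2, Lcn2 (lipocalin 2), Apcs (serum amyloid P component), the inter-alpha-trypsin inhibitor heavy chain genes Itih3 and Itih4, and the serpin gene Serpina3n. All 10 reached at least 1 TPM in at least 4 libraries, the condition for being tested. Levels are in TPM, a share of all transcripts in a library that is corrected for transcript length, so they can be compared between genes.

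The data were 16 RNA-seq libraries of primary mouse hepatocytes in 4 groups of 4. FLOX cells were labelled Alb-cre- and HKO cells Alb-cre+, meaning without and with Cre recombinase under the albumin promoter, which is active in hepatocytes, in a study of hepatic Smpd3. Cells of both genotypes were kept for 24 h with vehicle or with the saturated fatty acid palmitic acid at 0.4 mM. The sources used here give no strain, sex, age or number of animals. They do not say that replicates were separate animals or dishes, so p-values measure only the spread between these libraries, which may be technical. Smpd3, a neutral sphingomyelinase gene and the check of the labels, ranged from 27.8 to 37.1 TPM in the FLOX vehicle libraries and from 42.5 to 47.8 TPM in those with palmitic acid, against 4.25 to 5.89 and 6.44 to 9.15 TPM in HKO. Column sums were 975816 to 984870 TPM. How deeply a library was sequenced cannot be read from TPM, so errors here come only from the spread of libraries within groups. The standard errors pool that spread over the 4 groups and draw it towards a trend over all genes tested. Both FLOX libraries numbered 1 had the outermost scores on the third principal component, 16.1 with vehicle and -19.0 with palmitic acid, where the other libraries lay between -10.8 and 14.1.

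Hepatocyte markers were expressed, all 14 of them at a mean of at least 1 TPM. Their summed level, most of it Alb and Apoa1, was 44942 to 46690 TPM over the vehicle libraries and 36822 to 38356 TPM over those with palmitic acid. By limma 4 of the 14 were higher and 3 lower in HKO than in FLOX with vehicle, where 4.11% and 7.56% of all genes were. With palmitic acid 6 were higher and 3 lower, where 4.24% and 5.50% of all were. With vehicle Cyp3a11 differed by -0.90 and Cps1 by 0.41 on the log2 scale. The 10 neutrophil markers and the 8 lymphocyte markers each had a mean over the 16 libraries under 0.1 TPM, with Mpo, Ngp, Camp, Nkg7 and Cd8a at 0 in every library. Of 12 macrophage markers only Cd68 was tested. Their sum, nearly all of it Cd68, was 49.3 to 55.7 TPM in FLOX with vehicle, 56.9 to 69.6 TPM in FLOX with palmitic acid, 61.1 to 71.0 TPM in HKO with vehicle and 81.7 to 108 TPM in HKO with palmitic acid. Timd4 was at 0 in every library, and Adgre1, Clec4f, Cd5l, Vsig4 and Marco had means over the 16 libraries under 0.1 TPM. In HKO with palmitic acid, where the sum was highest, the group means of Clec4f and Marco were 0.1725 and 0.1925 TPM, with up to 0.47 and 0.44 TPM in a library. The 7 cholangiocyte markers summed to 369 to 383, 454 to 493, 485 to 513 and 622 to 667 TPM in the same order of groups. Spp1 and Cldn4 made up most of that sum. Of the 5 tested by limma, 3 rose and 2 fell with palmitic acid in each genotype. Cldn4 rose in FLOX (log2 change 0.43, adjusted p = 1.51e-07), and its mean in HKO went from 189.7 to 278.5 TPM. Sox9 rose in HKO (0.62, adjusted p = 1.26e-05), and its mean in FLOX went from 25.9 to 34.9 TPM. Krt7 and Krt19 fell in FLOX (log2 changes -1.38 and -0.67, adjusted p = 6.77e-08 and 5.49e-04) and in HKO (-0.99 and -1.02, adjusted p = 1.78e-06 and 7.27e-06). The macrophage and cholangiocyte sums moved with genotype and treatment, and the hepatocyte sum moved with treatment. The part of these markers in the results that follow was not tested. In such bulk libraries fewer cells of a type and less RNA per cell cannot be told apart.

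The acute phase response is driven in the liver mainly by interleukin 6, which acts through JAK kinases and the transcription factor STAT3, and by interleukin 1 and tumour necrosis factor, which act through NF-kB. C/EBP factors and the glucocorticoid receptor work with both routes, and serum amyloid A and orosomucoid genes are textbook targets of the combination. Proteins that rise in plasma are called positive reactants, and those that fall, such as albumin and transferrin, negative reactants.

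Promoter sequences are shown because several of the 10 genes moved together and others did not, and because Saa1 and Saa2 are near copies. RefSeq (GRCm38.p6) entries matched 9 of the 10 genes, all but Orm1. Each sequence is the 250 bases before the annotated start site, 5′ to 3′ on the gene's strand, and capitals mark a motif match. Motifs were searched on both strands: STAT as TTCNNNGAA, C/EBP as TTGCNNAA, and the longer glucocorticoid response element and NF-kB motifs by their names.
Apcs, chr1:172895055-172895304, minus strand, STAT match: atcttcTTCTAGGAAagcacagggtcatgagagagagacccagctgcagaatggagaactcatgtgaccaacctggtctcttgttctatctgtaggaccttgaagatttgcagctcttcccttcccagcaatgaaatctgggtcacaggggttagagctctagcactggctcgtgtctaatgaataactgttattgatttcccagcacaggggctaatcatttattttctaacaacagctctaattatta
Itih4, chr14:30886226-30886475, plus strand, STAT match: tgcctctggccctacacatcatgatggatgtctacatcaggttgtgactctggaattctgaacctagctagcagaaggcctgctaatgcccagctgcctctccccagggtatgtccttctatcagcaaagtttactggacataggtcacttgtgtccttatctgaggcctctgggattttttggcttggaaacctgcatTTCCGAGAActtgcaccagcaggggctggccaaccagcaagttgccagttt
Itih3, chr14:30923588-30923837, minus strand, no match: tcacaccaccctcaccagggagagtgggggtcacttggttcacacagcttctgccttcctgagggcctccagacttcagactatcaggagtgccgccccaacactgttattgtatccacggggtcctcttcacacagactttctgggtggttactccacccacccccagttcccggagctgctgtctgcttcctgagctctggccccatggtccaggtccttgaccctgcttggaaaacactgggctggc
Serpina3n, chr12:104406458-104406707, plus strand, glucocorticoid response element match: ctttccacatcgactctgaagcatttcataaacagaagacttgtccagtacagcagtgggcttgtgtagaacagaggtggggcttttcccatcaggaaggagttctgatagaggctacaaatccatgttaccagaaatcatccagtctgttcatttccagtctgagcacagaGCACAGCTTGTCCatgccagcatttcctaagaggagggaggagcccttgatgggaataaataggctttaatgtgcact
Saa1, chr7:46742981-46743230, minus strand, C/EBP match: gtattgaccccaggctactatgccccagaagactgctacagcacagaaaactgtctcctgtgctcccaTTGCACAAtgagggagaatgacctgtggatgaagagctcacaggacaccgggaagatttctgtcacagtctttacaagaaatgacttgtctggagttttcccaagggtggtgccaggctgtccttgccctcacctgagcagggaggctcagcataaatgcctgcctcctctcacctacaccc
Saa2, chr7:46751583-46751832, plus strand, C/EBP match: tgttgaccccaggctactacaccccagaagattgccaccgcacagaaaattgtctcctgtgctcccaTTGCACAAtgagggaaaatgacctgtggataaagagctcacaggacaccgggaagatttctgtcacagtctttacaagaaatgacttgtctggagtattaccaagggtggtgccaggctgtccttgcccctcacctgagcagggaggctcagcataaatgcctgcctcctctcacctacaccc

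The STAT motif lay at positions -244 to -236 from the start site of Apcs (TTCTAGGAA) and at -51 to -43 from that of Itih4 (TTCCGAGAA), and it was present in 7.02% of 32851 mouse promoters of the same length. The C/EBP motif, present in 9.56% of promoters, lay at -182 to -175 in Saa1 and at -183 to -176 in Saa2. Further C/EBP matches, in promoters not printed here, were TTATGCAA at -99 to -92 in Saa3, which is the motif read on the other strand, TTGCGCAA at -120 to -113 in Orm2 and TTGCTCAA at -216 to -209 in Lcn2. Serpina3n held GCACAGCTTGTCC at -78 to -66, the glucocorticoid response element found in 0.387% of promoters. None of the 9 windows held the NF-kB motif, which 7.25% of promoters hold. A match is a description of the letters and no evidence of binding.

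**Figure D1:**
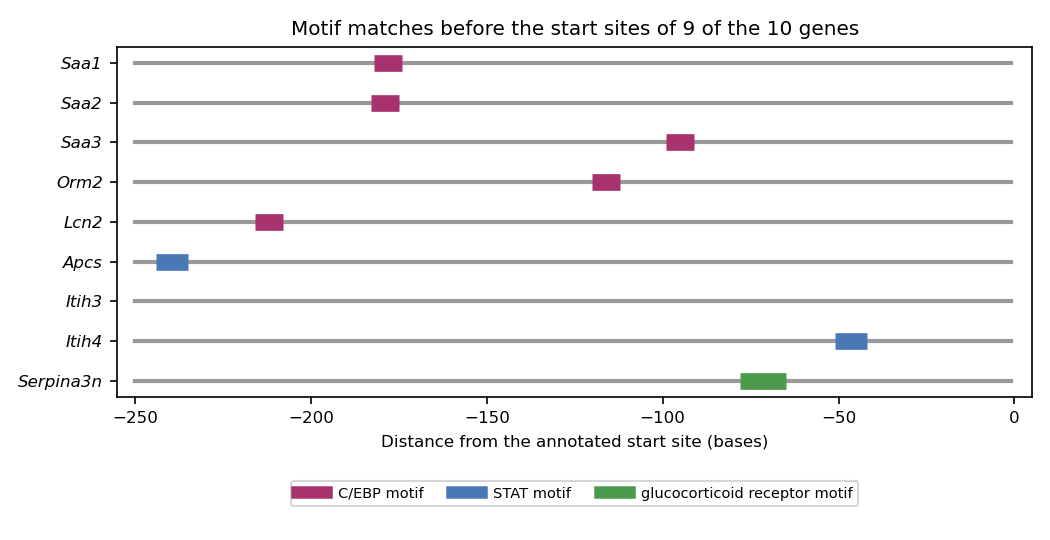
Motif matches in the 250 bases before the start sites of 9 genes. The x axis is the distance from the annotated start site in bases, each grey line is 1 promoter and each coloured block a match to the C/EBP, STAT or glucocorticoid receptor motif. C/EBP matches lie in Saa1, Saa2, Saa3, Orm2 and Lcn2, STAT matches in Apcs and Itih4, and Itih3 has none.

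Saa1 and Saa2 were 94.8% identical over these promoters and 95.1% identical over their 369 coding bases (18 differences). The stretch from coding base 67 to 246 (GENCODE M21 transcripts) holds 15 of the 18 differences, which are in capitals.
Saa1, coding bases 67 to 246: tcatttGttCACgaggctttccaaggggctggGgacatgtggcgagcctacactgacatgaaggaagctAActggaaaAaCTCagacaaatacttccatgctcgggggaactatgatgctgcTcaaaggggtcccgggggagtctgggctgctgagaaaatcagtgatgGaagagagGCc
Saa2, coding bases 67 to 246: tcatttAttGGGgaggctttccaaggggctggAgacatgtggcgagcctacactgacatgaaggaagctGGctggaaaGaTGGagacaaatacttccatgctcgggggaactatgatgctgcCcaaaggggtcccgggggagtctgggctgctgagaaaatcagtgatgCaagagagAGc
No window of 100 bases in the annotated coding transcripts of Saa1 or Saa2 was shared with another gene, but 83 of 560 windows of 50 bases in Saa1 and 78 of 662 in Saa2 were. For Orm1 and Orm2, 89.9% identical over their coding bases, 47 of 676 windows of 100 bases (6.95%) were shared, and for Serpina3n 4 of 1965. Of windows of 50 bases, 148 of 726 in Orm1 (20.4%) and 165 of 726 in Orm2 (22.7%) were shared. The same held for 139 of 2015 in Serpina3n and 93 of 2556 in Saa3. Windows of 50 and of 100 bases in Lcn2, Apcs, Itih3 and Itih4 were all unique. The read length is not given in the sources used here, so how much of the reads of Saa1 and Saa2, or of the orosomucoid genes, had to be split between copies is uncertain.

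Most of the 10 genes were abundant. By mean over the 16 libraries Lcn2 was the most abundant at 4749 TPM and ranked 31 of all genes, followed by Orm1 (2085 TPM, rank 62), Saa1 (1564 TPM, rank 88) and Saa2 (1255 TPM, rank 116). Itih3 (365 TPM, rank 345), Itih4 (344 TPM, rank 363) and Serpina3n (336 TPM, rank 373) had overlapping ranges over the libraries and cannot be ordered beyond their spread. Apcs followed at 139 TPM, Orm2 at 76.1 TPM and Saa3 at 31.2 TPM. The ranges of Apcs (91.8 to 186 TPM) and Orm2 (55.7 to 96.7 TPM) overlapped, while Saa3 (19.6 to 49.8 TPM) stayed under Orm2. Summed, the 10 transcripts made up 1.04% of all transcripts in FLOX cells with vehicle, 1.08% in FLOX cells with palmitic acid, 1.17% in HKO cells with vehicle and 1.09% in HKO cells with palmitic acid.

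**Figure D2:**
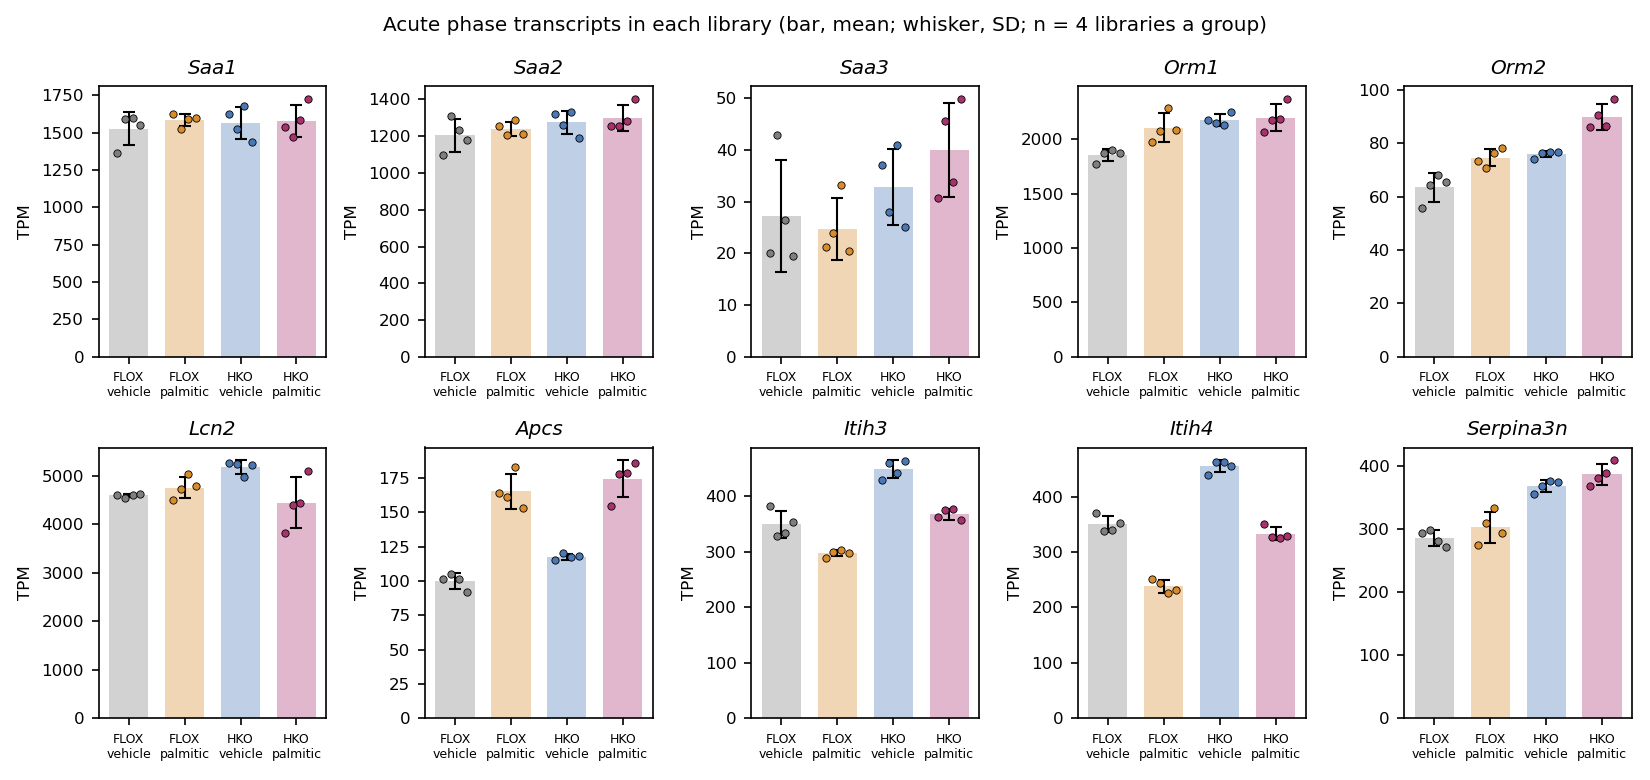
TPM of each of the 10 transcripts in each library, 1 panel per gene with its own y axis from 0. Points are the 4 libraries of a group, bars their mean and whiskers the SD. Apcs is higher and Itih3 and Itih4 are lower with palmitic acid in both genotypes, while the groups of Saa1 and Saa2 overlap throughout.

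Palmitic acid did not move the 10 transcripts in 1 direction. In FLOX cells Apcs, Orm1 and Orm2 rose and Itih3 and Itih4 fell, by limma with Benjamini-Hochberg adjustment over all 11858 genes tested at a threshold of 0.05. That is 3 of 10 higher, where 23.0% of all genes tested were higher, and 2 of 10 lower, where 11.5% of all genes were lower. In HKO cells Apcs and Orm2 rose, and Lcn2, Itih3 and Itih4 fell. That is 2 of 10 higher, where 29.4% of all genes were, and 3 of 10 lower, where 13.1% were. The median log2 change of the 10 was 0.052 in FLOX, against 0.096 over all genes tested, and 0.021 in HKO, against 0.11 over all genes. Scaling the libraries by median ratios instead of taking TPM as deposited moved that last median to 0.0056, so small changes with palmitic acid are to be read relative to it. Under that scaling higher calls were 45.4% of all calls in FLOX and 47.0% in HKO, in place of 66.7% and 69.3%.

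Between genotypes the calls among the 10 went in 1 direction. With vehicle Orm1, Orm2, Apcs, Itih3, Itih4 and Serpina3n were higher in HKO than in FLOX cells, 6 of 10, where 4.11% of all genes tested were higher. None of the 10 was lower, where 7.56% of all were. With palmitic acid Orm2, Itih3, Itih4 and Serpina3n were higher in HKO, 4 of 10 against 4.24% of all genes, and none was lower, against 5.50%. The median log2 difference of the 10 was 0.25 with vehicle and 0.17 with palmitic acid, beside -0.023 and -0.0077 over all genes tested. Each pair of comparisons in 1 genotype or 1 treatment shares libraries with the others, so the counts are not independent. The 10 genes and the lists below were chosen with earlier results of these data known. Their counts set beside the shares of all genes are therefore a description and no test. Higher calls were 35.2% of all calls with vehicle and 43.6% with palmitic acid, and 56.6% and 55.0% after median-ratio scaling.

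Whether the response to palmitic acid differed between genotypes was tested as an interaction, the HKO response minus the FLOX response. By limma 0 of the 10 passed the threshold, where 0.152% of all genes tested were higher and 0.0422% lower. Lcn2 and Orm1 had an unadjusted p under 0.05. The plot of the 10 changes shows all 5 comparisons.

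**Figure D3:**
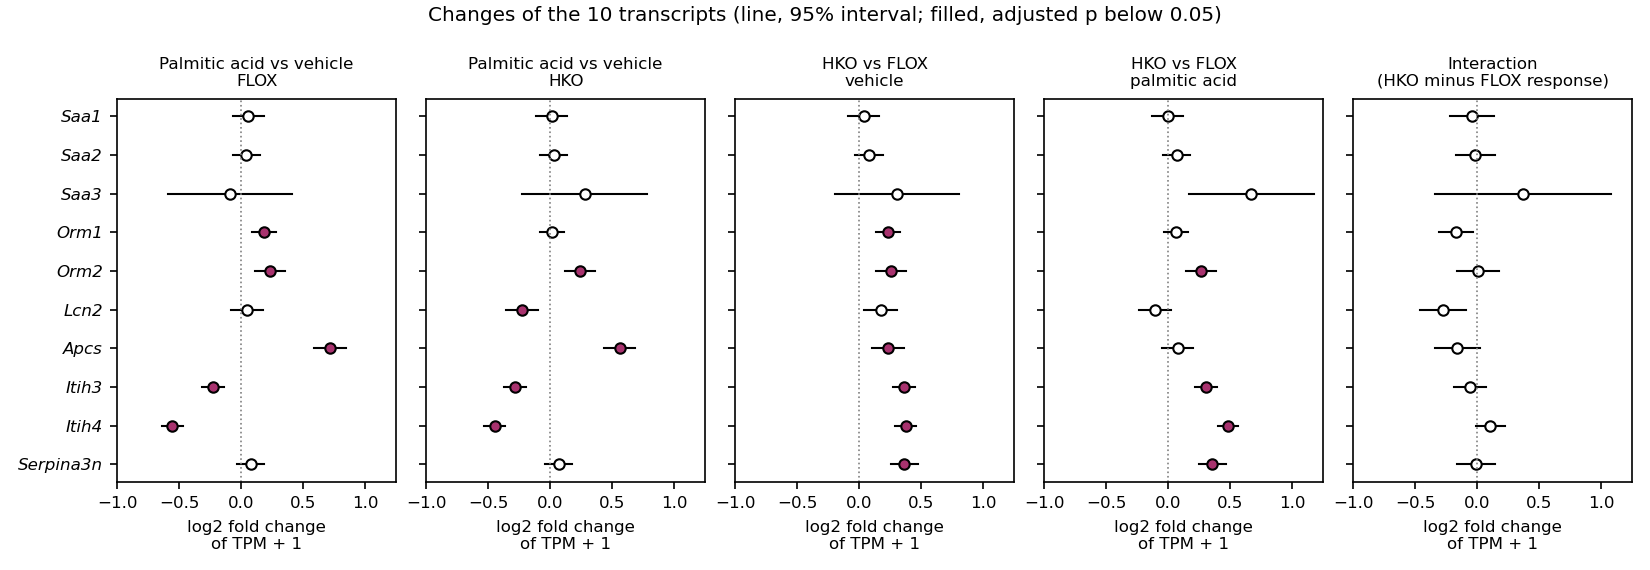
Log2 fold change of TPM + 1 for each of the 10 transcripts (rows) in the 5 comparisons (panels). Points are estimates, lines 95% intervals, and filled points have an adjusted p under 0.05. Orm2, Itih3, Itih4 and Serpina3n are filled and to the right of 0 in both genotype panels. Saa1 and Saa2 lie near 0 in every panel, and no point is filled in the interaction.

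The inter-alpha-trypsin inhibitor heavy chain genes fell with palmitic acid and were higher in HKO cells. These secreted chains are attached to hyaluronan or circulate in plasma, and Itih4 is a positive reactant in several species. Itih4 (ENSMUSG00000021922) stood at 371, 338, 339.6 and 352 TPM in FLOX with vehicle and at 251, 244, 225 and 232 TPM in FLOX with palmitic acid. In HKO it stood at 439.5, 462, 462 and 456 TPM with vehicle and at 350.3, 328, 326 and 328 TPM with palmitic acid. Every palmitic acid library was thus under every vehicle library of its genotype, and every HKO library above every FLOX library of its treatment, while HKO cells with palmitic acid overlapped FLOX cells with vehicle. The log2 change with palmitic acid was -0.56 ± 0.040 (SE) in FLOX, with an adjusted p of 3.65e-08, and -0.45 ± 0.040 in HKO, with an adjusted p of 2.88e-07. The log2 difference between HKO and FLOX was 0.38 ± 0.040 with vehicle (adjusted p = 9.95e-06) and 0.48 ± 0.040 with palmitic acid (adjusted p = 6.58e-07). Group means were 350.2 ± 15.1 and 238 ± 11.4 TPM in FLOX and 455 ± 10.5 and 333 ± 11.5 TPM in HKO, vehicle first (SD, n = 4).

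Itih3 (ENSMUSG00000006522), 56.7% identical to Itih4 over the coding bases and on the same chromosome, moved in the same directions in all 4 comparisons. Its TPM values were 382, 328, 333 and 352 in FLOX with vehicle, 289, 299.6, 302 and 297 in FLOX with palmitic acid, 428, 459.8, 442 and 462 in HKO with vehicle, and 361, 374, 377 and 357 in HKO with palmitic acid. No group overlapped another in any of the 4 comparisons. Itih3 fell with palmitic acid by 0.23 ± 0.043 on the log2 scale in FLOX (adjusted p = 7.15e-04) and by 0.28 ± 0.043 in HKO (adjusted p = 7.07e-05). It was higher in HKO by 0.36 ± 0.043 with vehicle (adjusted p = 3.76e-05) and by 0.31 ± 0.043 with palmitic acid (adjusted p = 1.89e-04). The fall with palmitic acid was smaller for Itih3 than for Itih4 in both genotypes, a difference between the 2 genes that was not tested.

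The related heavy chain genes were named in a list beside the 10. Itih1 fell with palmitic acid by 0.18 ± 0.052 in each genotype (adjusted p = 0.0133 in FLOX and 0.0111 in HKO) and was higher in HKO by 0.29 ± 0.052 under either treatment (adjusted p = 0.00185 and 0.00182). Itih2 fell by 0.47 ± 0.069 in each genotype (adjusted p = 7.19e-05 and 5.01e-05), and its differences between genotypes, 0.19 under either treatment, missed the threshold (adjusted p = 0.0904 and 0.104). Itih5, at 1.68 to 2.25 TPM by group mean, passed in none of the 4 comparisons. The summed hepatocyte markers, given above, were also lower with palmitic acid in both genotypes, and their part in the fall of the heavy chains was not tested.

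Apcs (ENSMUSG00000026542) encodes serum amyloid P, a pentraxin that binds amyloid fibrils and DNA and is the main acute phase pentraxin of mice. It was the only one of the 10 to rise with palmitic acid by more than 0.5 log2 units. In FLOX cells Apcs went from 102, 105, 102 and 91.8 TPM with vehicle to 164, 161, 183 and 153 TPM with palmitic acid. In HKO cells it went from 115, 120.4, 117 and 118 TPM to 155, 178, 178 and 186 TPM. The groups did not overlap in either genotype. The change was 1.65-fold in FLOX, a log2 change of 0.72 ± 0.061 with an adjusted p of 2.46e-07, and 1.48-fold in HKO, a log2 change of 0.56 ± 0.061 with an adjusted p of 2.52e-06. With vehicle Apcs was higher in HKO than in FLOX by 0.23 ± 0.061 (adjusted p = 0.02), a call that was lost without FLOX vehicle replicate 4 (adjusted p = 0.0693) or without HKO vehicle replicate 2 (adjusted p = 0.0545). With palmitic acid the genotypes overlapped, and the difference was 0.075 with a 95% interval of -0.054 to 0.20. The other short pentraxin, Crp, moved the opposite way with palmitic acid, from 53.7 to 39.0 TPM in FLOX (log2 change -0.46, adjusted p = 8.16e-04) and from 69.9 to 42.8 TPM in HKO (log2 change -0.69, adjusted p = 1.3e-05). Ptx3, the long pentraxin, had a mean under 0.1 TPM.

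Serpina3n (ENSMUSG00000021091), a secreted serine protease inhibitor and a mouse counterpart of alpha-1-antichymotrypsin, followed the genotype. In FLOX cells its TPM values were 294, 299, 282 and 271 with vehicle and 274, 309, 334 and 294 with palmitic acid. HKO cells held 356, 368, 377 and 375 TPM with vehicle and 369, 381, 389 and 409 TPM with palmitic acid. All 8 HKO libraries were above all 8 FLOX libraries. The log2 difference was 0.36 ± 0.052 under vehicle (adjusted p = 2.1e-04) and 0.36 ± 0.052 under palmitic acid (adjusted p = 2.59e-04), or 1.29-fold and 1.28-fold. The response to palmitic acid was 0.076 in FLOX, with a 95% interval of -0.034 to 0.19, and 0.068 in HKO, with an interval of -0.043 to 0.18. Neither passed the threshold (adjusted p = 0.271 and 0.315), though the FLOX response passed at 0.14 (adjusted p = 0.046) when both FLOX libraries numbered 1 were left out. Of its relatives, Serpina3k, at 4555 to 5934 TPM by group mean, fell with palmitic acid in both genotypes (-0.27 and -0.32, adjusted p = 5.52e-06 and 6.23e-07) and was lower in HKO with palmitic acid (-0.12, adjusted p = 0.0227). Serpina3m passed in none of the 4 comparisons.

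Orosomucoids are small plasma glycoproteins of the lipocalin family that bind drugs and lipids. Orm1 (ENSMUSG00000039196) stood at 1773, 1871, 1901 and 1872 TPM in FLOX with vehicle, 1979, 2077, 2290.3 and 2088 TPM in FLOX with palmitic acid, 2180.0, 2149, 2129.9 and 2252 TPM in HKO with vehicle, and 2067, 2177, 2189 and 2373 TPM in HKO with palmitic acid. The FLOX vehicle libraries were below the other 3 groups, which overlapped. Orm1 rose with palmitic acid in FLOX by a log2 change of 0.18 ± 0.045 (adjusted p = 0.00517) and was higher in HKO with vehicle by 0.23 ± 0.045 (adjusted p = 0.00303). The first call was lost under median-ratio scaling (adjusted p = 0.328) and quantile normalization (adjusted p = 0.565). In HKO the response was 0.014 with a 95% interval of -0.082 to 0.11, and with palmitic acid the genotypes differed by 0.062 with an interval of -0.034 to 0.16. The difference between the 2 responses was -0.17 ± 0.064, with an adjusted p of 0.501.

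Orm2 (ENSMUSG00000061540) was much lower and differed in every comparison but the interaction. Its TPM values were 55.7, 64.6, 68.3 and 65.7 in FLOX with vehicle, 73.3, 71.0, 76.2 and 78.3 in FLOX with palmitic acid, 74.2, 76.3, 76.8 and 77.0 in HKO with vehicle, and 86.2, 90.7, 86.7 and 96.7 in HKO with palmitic acid. The 4 HKO libraries with palmitic acid were above all others. Orm2 rose with palmitic acid by a log2 change of 0.23 ± 0.057 in FLOX (adjusted p = 0.00487) and 0.24 ± 0.057 in HKO (adjusted p = 0.00308), calls that median-ratio scaling ended (adjusted p = 0.194 and 0.236). It was higher in HKO by 0.26 ± 0.057 with vehicle (adjusted p = 0.00698) and by 0.27 ± 0.057 with palmitic acid (adjusted p = 0.00648). Per Orm1 transcript there were 0.0396 to 0.0417 Orm2 transcripts in HKO cells with palmitic acid and 0.0314 to 0.0375 in the other 12 libraries, a separation noticed in the values and not tested.

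Since reads can be split between these copies, Orm1, Orm2 and their relative Orm3 were also summed. The sum, nearly all of it Orm1, rose with palmitic acid in FLOX by 0.19 ± 0.045 (adjusted p = 0.00423) and was higher in HKO with vehicle by 0.23 ± 0.045 (adjusted p = 0.00314). It did not pass in HKO with palmitic acid (0.023, adjusted p = 0.717) or between genotypes with palmitic acid (0.063, adjusted p = 0.454). Orm3 itself was at 22.5 and 27.9 TPM in FLOX and 18.4 and 18.9 TPM in HKO, vehicle first. It rose with palmitic acid in FLOX (log2 change 0.30 ± 0.10, adjusted p = 0.0287). In HKO with palmitic acid it was lower than in FLOX (-0.56 ± 0.10, adjusted p = 0.00182), opposite to Orm2.

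**Figure D4:**
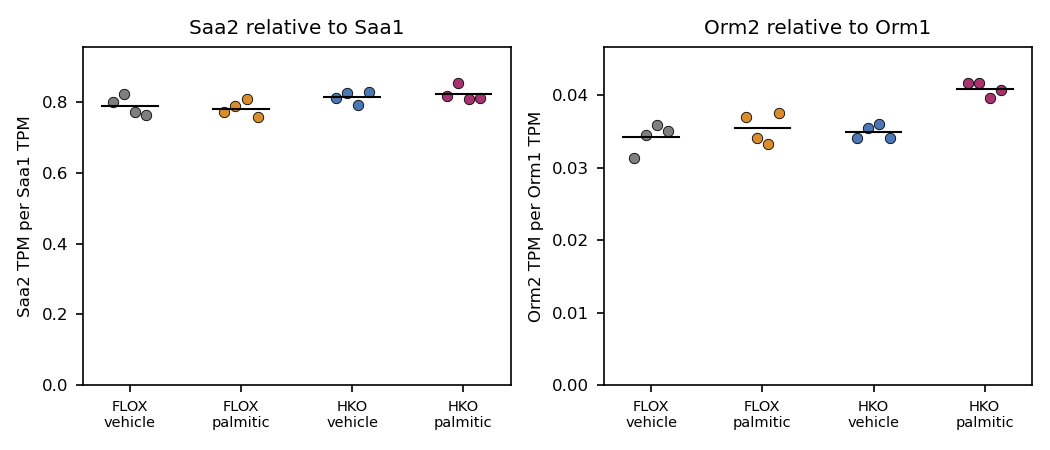
Saa2 TPM per Saa1 TPM (left) and Orm2 TPM per Orm1 TPM (right) in each library, with y axes from 0. Points are libraries and lines group means. The Saa2 to Saa1 ratio lies between 0.759 and 0.854 in all 16 libraries, and the Orm2 to Orm1 ratio is 0.0396 to 0.0417 in HKO cells with palmitic acid and at most 0.0375 in the other libraries.

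Serum amyloid A proteins travel on high-density lipoprotein, and their liver transcripts are among the most strongly induced in an acute phase response. Saa1 (ENSMUSG00000074115) stood at 1366, 1592, 1597 and 1549 TPM in FLOX with vehicle, 1621, 1526, 1593 and 1594 TPM in FLOX with palmitic acid, 1626, 1523, 1677 and 1435 TPM in HKO with vehicle, and 1539, 1471, 1585 and 1725 TPM in HKO with palmitic acid. Saa2 (ENSMUSG00000057465) stood at 1096, 1311, 1235 and 1182 TPM, at 1253, 1206, 1289 and 1209.6 TPM, at 1322, 1258, 1329.6 and 1191 TPM, and at 1257, 1257, 1283 and 1403 TPM in the same order. All groups overlapped for both genes. The estimated log2 changes of Saa1 and Saa2 lay between -0.0054 and 0.082 in the 4 comparisons, and their 95% intervals between -0.13 and 0.19. The smallest adjusted p of the 8 tests was 0.381, for Saa2 between genotypes with vehicle, and the direction of several of these small values turned with the scaling. The sum of Saa1 and Saa2 gave 0.050 in FLOX and 0.020 in HKO for palmitic acid, and 0.057 and 0.027 for genotype with vehicle and palmitic acid (adjusted p = 0.508, 0.797, 0.589 and 0.846).

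Saa3 (ENSMUSG00000040026), 76.1% identical to Saa1 over the coding bases and known also as a product of macrophages and fat tissue, was the least abundant and the most variable of the 10. Its TPM values were 20.0, 42.8, 26.5 and 19.6 in FLOX with vehicle, 21.1, 23.9, 33.3 and 20.4 in FLOX with palmitic acid, 37.0, 28.1, 40.9 and 25.2 in HKO with vehicle, and 30.7, 45.5, 33.8 and 49.8 in HKO with palmitic acid. The coefficient of variation within a group was 22.5% to 39.9%, against at most 11.8% for the other 9 genes. With palmitic acid Saa3 was 1.62 times as high in HKO as in FLOX by mean, but the groups overlapped and the log2 difference of 0.67 ± 0.24 missed the threshold (adjusted p = 0.0923). It passed without FLOX vehicle replicate 2, the library at 42.8 TPM, which changes only the estimate of the spread (adjusted p = 0.0398). In the other 3 comparisons Saa3 changed by -0.090, 0.28 and 0.30, with adjusted p values of 0.8, 0.37 and 0.486. Saa4, the constitutive member of the family, stood at 6.84 to 8.37 TPM by group mean. It was higher in HKO by 0.25 ± 0.073 with vehicle (adjusted p = 0.0407) and with palmitic acid (adjusted p = 0.04).

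Lcn2 (ENSMUSG00000026822) binds bacterial siderophores and so withholds iron, and it is made by hepatocytes and by neutrophils. Its TPM values were 4613, 4555, 4608 and 4633 in FLOX with vehicle, 4499, 4724, 5035 and 4788 in FLOX with palmitic acid, 5275, 5256, 4985 and 5231 in HKO with vehicle, and 3830.4, 4412, 4436 and 5111 in HKO with palmitic acid. The last group spread most, and its highest library was above the lowest HKO vehicle library. Lcn2 fell with palmitic acid in HKO by 0.23 ± 0.061 on the log2 scale (adjusted p = 0.00663), and in FLOX the change was 0.048 with a 95% interval of -0.081 to 0.18. With vehicle every HKO library was above every FLOX library, yet the difference of 0.17 ± 0.061 had an adjusted p of 0.0827. It passed when only those 2 groups were fitted (adjusted p = 0.002) or when HKO palmitic acid replicate 1 or 4 was left out (adjusted p = 0.0218 and 0.0192). With palmitic acid the difference was -0.10 with an interval of -0.23 to 0.025, and the difference between the 2 responses was -0.28 ± 0.086 (adjusted p = 0.34). Without HKO palmitic acid replicate 4, the library at 5111 TPM, these became -0.17 (adjusted p = 0.0339) and -0.35 (adjusted p = 0.0493). Without HKO palmitic acid replicate 1, the library at 3830.4 TPM, they became -0.036 (adjusted p = 0.773) and -0.21 (adjusted p = 0.417), and these 2 libraries gave the ends of the range over the 16 libraries left out in turn. Neutrophil markers were near 0, at a sum of at most 0.39 TPM in any library.

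Genes listed as other positive acute phase genes, 33 of which 31 were tested, fell with palmitic acid more often than they rose. The list also held Saa4, the constitutive member of its family, Ambp, and the heavy chain genes Itih1, Itih2 and Itih5. Whether each listed gene behaves as a positive reactant was not tested, so the counts describe the list as drawn up. In FLOX 20 of 31 fell and 1, Orm3, rose, where 11.5% of all genes fell and 23.0% rose. In HKO 23 fell and none rose, where 13.1% of all fell and 29.4% rose. Their median log2 change was -0.19 in FLOX and -0.17 in HKO, below that of all genes tested. Hamp, which encodes the iron hormone hepcidin, had the largest fall, from 10780 to 3177 TPM in FLOX (log2 change -1.80 ± 0.16, adjusted p = 4.1e-07) and from 7465 to 2435 TPM in HKO (-1.64 ± 0.16, adjusted p = 7.63e-07). Fgb, a fibrinogen chain, fell in FLOX by 0.54 ± 0.033 (adjusted p = 5.77e-09), and its mean in HKO went from 698 to 560 TPM. Lbp, which presents bacterial lipopolysaccharide to CD14, fell in HKO by 0.53 ± 0.085 (adjusted p = 1.27e-04). The mean of Lbp in FLOX went from 19.9 to 14.3 TPM.

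Between genotypes most of the same list, also chosen with earlier results of these data known, went with Orm2, Itih3, Itih4 and Serpina3n. With vehicle 21 of the 31 were higher in HKO and 1, Hamp, was lower, with a median of 0.26, where 4.11% of all genes were higher and 7.56% lower. With palmitic acid 21 were higher and 2, Orm3 and Serpina3k, were lower, with a median of 0.26, where 4.24% of all genes were higher and 5.50% lower. Lbp was higher in HKO by 0.94 ± 0.085 with vehicle (adjusted p = 1.83e-06) and 0.87 ± 0.085 with palmitic acid (adjusted p = 4.31e-06). The complement component C3 was higher by 0.70 ± 0.056 and 0.79 ± 0.056 (adjusted p = 4.17e-07 and 1.24e-07). The haemoglobin scavenger Hp was higher by 0.67 ± 0.032 with vehicle (adjusted p = 1.2e-09). With palmitic acid the means of Hp were 1312 TPM in FLOX and 1910 TPM in HKO. The haem scavenger Hpx was higher by 0.64 ± 0.036 with palmitic acid (adjusted p = 1.17e-08). With vehicle the means of Hpx were 2923 TPM in FLOX and 4523 TPM in HKO. Cd68 was higher in HKO too, by 0.29 with vehicle and 0.47 with palmitic acid (adjusted p = 0.0336 and 0.00184). Of 5 cholangiocyte markers tested, 2 were higher and 1 lower with vehicle and 2 were higher with palmitic acid. Their summed level was higher in HKO mainly through Spp1 (149.3 against 274.4 TPM with vehicle). With vehicle Krt19 was also higher in HKO by limma (0.43, adjusted p = 0.0319), and Krt7 was lower (-0.61, adjusted p = 0.00112). Cldn4 was at 188 and 189.7 TPM with vehicle and was higher in HKO with palmitic acid (0.13, adjusted p = 0.0232). The part of these markers in the differences was not tested.

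The genes listed as negative reactants did not move opposite to those listed as positive. Of 15 tested, 9 fell and 1 rose with palmitic acid in FLOX, and 11 fell and 1 rose in HKO, with median log2 changes of -0.16 and -0.19. Over all genes 11.5% fell and 23.0% rose in FLOX, and 13.1% fell and 29.4% rose in HKO. The 1 that rose was Apoa4, an apolipoprotein of triglyceride-rich particles, from 1073 to 4008 TPM in FLOX (log2 change 1.90 ± 0.061, adjusted p = 9.99e-12) and from 1575 to 4677 TPM in HKO (1.57 ± 0.061, adjusted p = 3.4e-11). Ahsg, which encodes fetuin-A, fell in FLOX by 0.55 ± 0.033 (adjusted p = 4.41e-09). The mean of Ahsg in HKO went from 1951 to 1515 TPM. Trf, the transferrin gene, fell in HKO by 0.60 ± 0.040 (adjusted p = 1.31e-08). The mean of Trf in FLOX went from 13070 to 9604 TPM. Between genotypes 6 were higher in HKO and 3 lower under either treatment, with medians of 0.058 with vehicle and 0.026 with palmitic acid. Over all genes 4.11% were higher and 7.56% lower with vehicle, and 4.24% and 5.50% with palmitic acid. Ahsg was higher in HKO by 0.42 ± 0.033 with vehicle (adjusted p = 3.63e-07) and 0.60 ± 0.033 with palmitic acid (adjusted p = 8.64e-09). Apoa1 was lower in HKO by 0.38 ± 0.051 with palmitic acid (adjusted p = 1.25e-04). With vehicle the means of Apoa1 were 15720 TPM in FLOX and 12970 TPM in HKO.

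**Figure D5:**
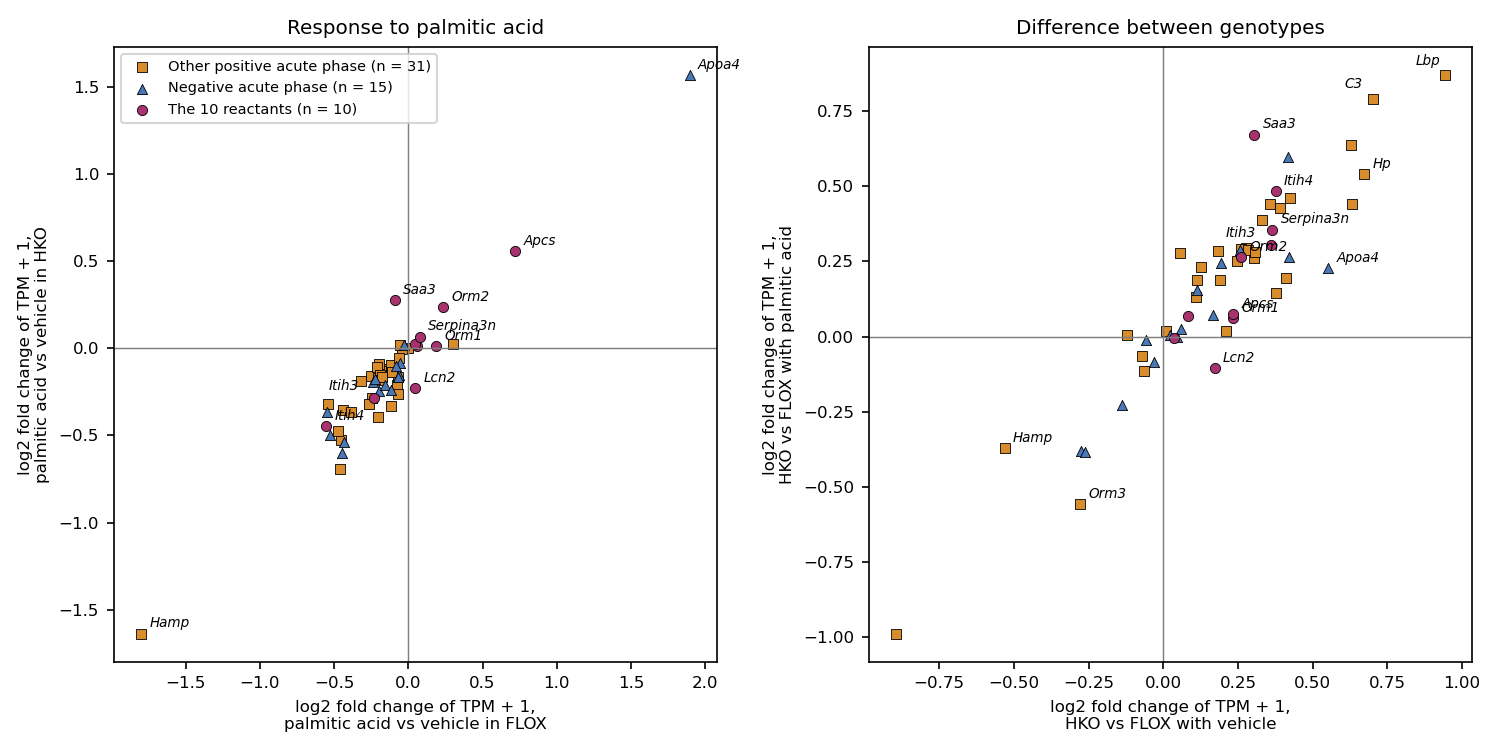
Log2 fold changes of TPM + 1 for the 10 reactants (circles), 31 genes listed as other positive (squares) and 15 listed as negative acute phase genes (triangles). The left panel sets palmitic acid in HKO (y) against palmitic acid in FLOX (x), and the right panel sets HKO against FLOX with palmitic acid (y) against the same with vehicle (x), and within a panel the axes share no library. Apcs, Orm2 and Apoa4 lie at the upper right of the left panel with Hamp at the lower left, and Lbp and C3 lie at the upper right of the right panel.

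Transcripts of the upstream cytokines were barely present. Il6, Il1a, Il1b and Tnf each had a mean under 0.1 TPM. Of 17 tested genes of the interleukin 6 and STAT3 route, 1 rose and 2 fell with palmitic acid in FLOX and 3 rose and 2 fell in HKO, where 23.0% and 29.4% of all genes rose and 11.5% and 13.1% fell. The medians were 0.13 and 0.035, and the second became -0.084 under median-ratio scaling. Socs2, a suppressor of cytokine signalling, fell by 0.73 ± 0.081 in FLOX (adjusted p = 4.43e-06) and 0.49 ± 0.081 in HKO (adjusted p = 1.61e-04), and Cebpd, a C/EBP factor of the acute phase response, fell by 0.57 ± 0.079 (adjusted p = 4.66e-05) and 0.35 ± 0.079 (adjusted p = 0.00205). Socs3, a STAT3 target that feeds back on the receptor, was higher in HKO by 0.33 ± 0.096 with vehicle (adjusted p = 0.0359) and 0.46 ± 0.096 with palmitic acid (adjusted p = 0.0061), at 2.64 to 4.22 TPM by group mean. Cebpb was higher in HKO with palmitic acid by 0.68 ± 0.17 (adjusted p = 0.0183) and not with vehicle (0.30, adjusted p = 0.315). Stat3 and Il6ra passed in none of the 4 comparisons.

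In the interleukin 1 and NF-kB route 9 of 26 tested genes rose and 2 fell with palmitic acid in FLOX, and 8 rose and 5 fell in HKO, while after median-ratio scaling 7 rose and 6 fell in FLOX and 7 rose and 8 fell in HKO. Over all genes 23.0% rose and 11.5% fell in FLOX, and 29.4% rose and 13.1% fell in HKO, so the share that rose in HKO was near that of all genes. The medians were 0.085 and 0.18 as deposited, and the first became -0.0092 under that scaling. Cd14, the co-receptor for lipopolysaccharide, rose by 1.44 ± 0.048 (adjusted p = 1.46e-11) and 1.495 ± 0.048 (adjusted p = 4.79e-12). Tnfaip3, an NF-kB target and inhibitor, fell by 0.54 ± 0.13 (adjusted p = 0.0043) and 0.61 ± 0.13 (adjusted p = 0.00139). Nfkbiz, a nuclear co-activator of NF-kB that Lcn2 transcription is known to need, rose in FLOX by 0.47 ± 0.12 (adjusted p = 0.00744), was higher in HKO with vehicle by 0.40 ± 0.12 (adjusted p = 0.0472) and stood at 3.72 to 6.52 TPM by group mean. Relb rose in HKO by 0.67 (adjusted p = 1.63e-05), and its mean in FLOX went from 7.75 to 10.4 TPM. Il1r1 fell with palmitic acid in HKO by 0.40 ± 0.13 (adjusted p = 0.0168), and Nfkb1 passed in none of the 4 comparisons. Between genotypes 3 of the 26 were higher in HKO with vehicle and 6 with palmitic acid, among them Tlr2 by 0.62 ± 0.10 (adjusted p = 7.58e-04) and 0.43 ± 0.10 (adjusted p = 0.0134), and none was lower, where 4.11% and 4.24% of all genes were higher and 7.56% and 5.50% lower.

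Of 10 genes of the glucocorticoid receptor and its targets, 1 rose and 4 fell with palmitic acid in FLOX and 3 rose and 3 fell in HKO, with medians of -0.044 and -0.072. Over all genes 23.0% rose and 11.5% fell in FLOX, and 29.4% rose and 13.1% fell in HKO, so the share of the 10 that rose in HKO was near that of all genes. Fkbp5 fell by 0.49 ± 0.069 in FLOX (adjusted p = 5.09e-05) and 0.65 ± 0.069 in HKO (adjusted p = 1.98e-06), and Tsc22d3 by 0.56 ± 0.066 (adjusted p = 8.46e-06) and 0.48 ± 0.066 (adjusted p = 2.65e-05). Dusp1 rose in HKO by 0.41 (adjusted p = 8.34e-06), and its mean in FLOX went from 215 to 246 TPM. With vehicle 1 of the 10, Hsd11b1, was higher in HKO and 1, Sgk1, lower, where 4.11% and 7.56% of all genes were. With palmitic acid 3 were higher, Tat (0.51), Klf9 (0.34) and Hsd11b1 (0.24), where 4.24% of all were. No gene of the 5 lists passed the threshold for the interaction.

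The genes whose levels were most like those of a reactant were sought among all tested genes by Pearson's r of log2(TPM + 1) over the 16 libraries, which share 4 groups, so r is given as a description. Itih3 was most like Itih1 (r = 0.977), Pzp (0.974) and Hc (0.973). Itih4 was most like Selenop (0.980), Ahsg (0.979) and Fga (0.977). Apcs was most like Impdh1 (0.971), Sfn (0.970) and Armcx3 (0.969), and Serpina3n most like Fgl1 (0.969) and Gm49759 (0.951). For Orm2 these were Tmsb10 (0.935), Rab30 (0.929) and Slpi (0.929), and for Orm1 Cpb2 (0.891), 3830432H09Rik (0.887) and Slpi (0.838). The highest r of Saa1, Saa2, Saa3 and Lcn2 with any gene outside the 10 was 0.770, 0.781, 0.772 and 0.763. Within the 10, Itih3 and Itih4 gave r = 0.942, but their deviations from the group means gave r = 0.371. Saa1 and Saa2 gave r = 0.837, and their deviations from the group means gave r = 0.897. These deviations are free of group differences. Among pairs of the 10 their r ran from -0.802 (Saa2 with Itih3) to 0.897 (Saa1 with Saa2). The part of reads split between Saa1 and Saa2 in their r was not tested.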

How the data were processed

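Libraries were strand-specific and made from total RNA, per the labels' protocols. The table the authors deposited gives TPM for 55416 Ensembl genes of mouse in 16 columns. RSEM 1.3.3 is listed in the submitters' processing notes beside a build of the human genome, although every ID is a mouse ID. The aligner, mouse build and annotation were not given in the sources used here. Counting error could not be estimated, because TPM does not hold the depth.

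A gene-name table gave symbols for 52083 IDs (94.0%), among them 11803 of the 11858 tested genes. Groups were taken from the sample labels. Genes with at least 1 TPM in at least 4 libraries were tested on log2(TPM + 1), which understates fold changes of low genes, with limma 3.58.1 in R 4.3.3. The model held a mean for each of the 4 groups, the prior variance followed a trend with expression, tests were two-sided, and each of 5 comparisons was adjusted (Benjamini-Hochberg) over every gene tested. The script was tested on simulated data.

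The 10 genes and the lists beside them were chosen with earlier results of these data known. Named were the 10 genes, up to 3 genes per list and comparison with the largest changes past the threshold, 8 preset regulators, Smpd3, and the 3 genes most like each reactant. The text leaves out some of them, and names Itih1, Itih5, Orm3, Saa4, Serpina3k and Serpina3m as relatives chosen after their values were seen. Promoters were RefSeq entries (GRCm38.p6) and coding sequences the longest open frames of GENCODE M21 coding transcripts.

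The settings tried were median-ratio scaling or quantile normalization, another pseudocount (0.1), a filter at 5 TPM or none, a fit without the trend or of only 2 groups, the replicate block, each library left out, and copies summed. Leaving out both FLOX libraries numbered 1 was added after seeing the data.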

Additional observations from a re-analysis of the deposited data

Results flagged for a closer look

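Of 40 groups of 4 libraries (10 genes in 4 groups), 2 had a library set apart from the others by more than Dixon's 95% limit for 4 values, and chance alone gives about 1 in 20 groups. Lcn2 was lowest in HKO vehicle replicate 3, at 4985 TPM, where the other 3 libraries lay between 5231 and 5275 TPM (gap over range 0.849). Itih4 was highest in HKO palmitic acid replicate 1, at 350.3 TPM, where the other 3 lay between 326 and 328 TPM (0.909). Leaving out either library changed no call of its gene.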

How the results depend on the processing

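Each reactant was refitted under 26 alternatives in 4 comparisons and 25 in the interaction, which gave 1290 values for the 10 genes, of which 1221 kept direction and call, 8 lost the call, 7 gained it and 54 turned direction. No value that turned was past the threshold. Depth is unknown, so no limit from depth can be stated.

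The number of reactants past the threshold with palmitic acid in FLOX was 3 in place of 5 under median-ratio scaling. Leaving out 1 library gave 0 to 1 reactant in the interaction, the 1 being Lcn2 without HKO palmitic acid replicate 4. All-gene counts moved in the interaction, from 23 to 9 under median-ratio scaling, 5 with no trend and 8 to 24 with 1 library left out, and between genotypes with palmitic acid from 1155 to 669 with only the 2 groups fitted. Quantile normalization gave shares of higher calls of 50.4%, 51.9%, 51.9% and 51.3% in the 4 comparisons.

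The replicate block used the numbers in the titles. Deviations of same-numbered libraries from their group means correlated at -0.150 to 0.036 within FLOX, -0.027 to 0.086 within HKO, -0.113 to -0.071 between genotypes with vehicle and -0.054 to 0.11 with palmitic acid. Of 4 libraries, 0, 2, 0 and 2 correlated best with their own number. The numbers were therefore not used to pair libraries, which does not show that same-numbered libraries came from different animals. With the block 3 genes passed in the interaction in place of 23, and no call of a reactant changed.

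Values that turned under median-ratio scaling were, for palmitic acid in FLOX, -0.044 (Saa1), -0.058 (Saa2), -0.052 (Lcn2) and -0.023 (Serpina3n), in HKO -0.11 (Saa1), -0.095 (Saa2), -0.11 (Orm1) and -0.055 (Serpina3n), between genotypes with palmitic acid 0.0029 (Saa1), and in the interaction -0.016 (Orm2). Under quantile normalization they were -0.026 (Saa2) in FLOX, -0.032 (Saa1), -0.081 (Saa2) and -0.0087 (Orm1) in HKO, 0.0089 (Saa1) between genotypes with palmitic acid and 0.018 (Serpina3n) in the interaction. With copies summed they were 0.027 (Saa1) between genotypes with palmitic acid and -0.16 (Orm2) in the interaction. Summing also ended the calls of Orm2 in HKO (adjusted p = 0.717) and between genotypes with palmitic acid (adjusted p = 0.454), by construction, since Orm1 makes up most of the sum. With both FLOX libraries numbered 1 left out they were -0.0077 (Saa1) and -0.0083 (Saa2) in FLOX, -0.015 and 0.0060 (Saa1) between genotypes with vehicle and palmitic acid, and 0.021 (Saa1) and 0.036 (Saa2) in the interaction. That setting called 6, 5, 6, 4 and 0 reactants in the 5 comparisons, in place of 5, 5, 6, 4 and 0.

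With 1 library left out the ranges of results that turned were -0.0029 to 0.083 (Saa2) and -0.24 to 0.15 (Saa3) in FLOX, -0.029 to 0.048 (Saa1), -0.0095 to 0.048 (Saa2) and -0.023 to 0.044 (Orm1) in HKO, and -0.015 to 0.078 and -0.049 to 0.028 (Saa1) between genotypes with vehicle and palmitic acid. In the interaction they were -0.085 to 0.010 (Saa1), -0.055 to 0.031 (Saa2), -0.029 to 0.068 (Orm2) and -0.055 to 0.039 (Serpina3n). For all these changes with the settings, other than the summing of copies, the cause was not tested.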
